A study of Mus musculus with 7 samples.

Results

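Mitochondrial ribosomal proteins are encoded in the nucleus, translated in the cytosol and imported into mitochondria, where they assemble with 2 mitochondrially encoded rRNAs. The resulting ribosome translates the mRNAs of the mitochondrial genome, which encode hydrophobic core subunits of the respiratory chain and the ATP synthase. The large subunit carries the peptidyl transferase centre and the small subunit the decoding centre. Some of the proteins have a counterpart in bacterial ribosomes, and others are found only in mitochondrial ribosomes. Hepatocytes are rich in mitochondria.

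The genes were taken by symbol from the deposited read-count table, as every symbol that begins with *Mrpl* or *Mrps* followed by a digit. The rule found 78 of 14817 gene identifiers, 49 with the large-subunit prefix *Mrpl* and 29 with the small-subunit prefix *Mrps*. All 78 passed the expression filter of the test, so none was left out. The prefix is not always a guide to the product. *Mrps30* and *Mrps18a* encode proteins of the large subunit, *Mrps36* encodes a component of the 2-oxoglutarate dehydrogenase complex, and *Mrpl48-ps* is a processed pseudogene.

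The data are RNA-seq read counts in 4 libraries from primary hepatocytes of WT mice and 3 from those of WDR6-WKO mice, whole-body knockouts that lack an exon of *Wdr6* removed by CRISPR–Cas9. All were male, and the cells were isolated by collagenase perfusion of the liver, plated in William's E medium with fetal bovine serum and kept overnight without treatment. *Wdr6* encodes a WD40 repeat protein that the study examined for a role in hepatic lipogenesis. As the deletion was in all tissues, changes in the hepatocytes and changes that began elsewhere in the animal cannot be told apart. The age of these mice is not given in the sources used here. The study describes its replicates as biological, and the p-values judge the difference between the groups against the spread between these libraries.

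Reads counted on genes totalled 17816913 to 23668940 a library, of which 0.224% to 0.273% fell on the 78 genes. Levels are given as CPM, read counts brought to a common library total with TMM scaling, which aligns libraries on the bulk of their genes. *Wdr6* itself stood at 49.0, 40.6, 40.9 and 45.6 CPM in WT replicates 1 to 4 and at 2.58, 2.32 and 2.23 CPM in WDR6-WKO replicates 1 to 3. All 3 knockout libraries were therefore far below every WT library, with a log2 fold change of -4.20 (s.e. 0.11, adjusted p = 3.44e-12, edgeR's quasi-likelihood test). Over all genes, WDR6-WKO replicate 3 was less like the other knockout libraries, with a chi-square of 14.3 and 16.0 per gene against replicates 1 and 2, which differed from each other by 5.14. Where this library changes a call among the genes described, the value without it is also given.

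Most of the 78 mRNAs lay slightly above WT in the knockout group. The log2 fold change was above 0 in 67 and below 0 in 11, with a median of 0.15 and quartiles of 0.06 and 0.24, against a median of 0.01 and quartiles of -0.12 and 0.15 over the 14779 genes tested. After adjustment for the number of genes tested, few of the differences were larger than the spread between libraries. A gene was called when edgeR's quasi-likelihood test gave it an adjusted p below 0.05. Of the 78 genes 3 were called higher and 0 lower, against 12.8% of all genes tested, 6.65% as higher and 6.18% as lower. At an unadjusted p under 0.05, 33 of the 78 passed (42.3%), against 28.1% of all genes tested, and neither DESeq2 nor limma-voom called any of them lower. All 3 called genes carried the small-subunit prefix, where they made up 10.3% of 29 genes.

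**Figure D1:**
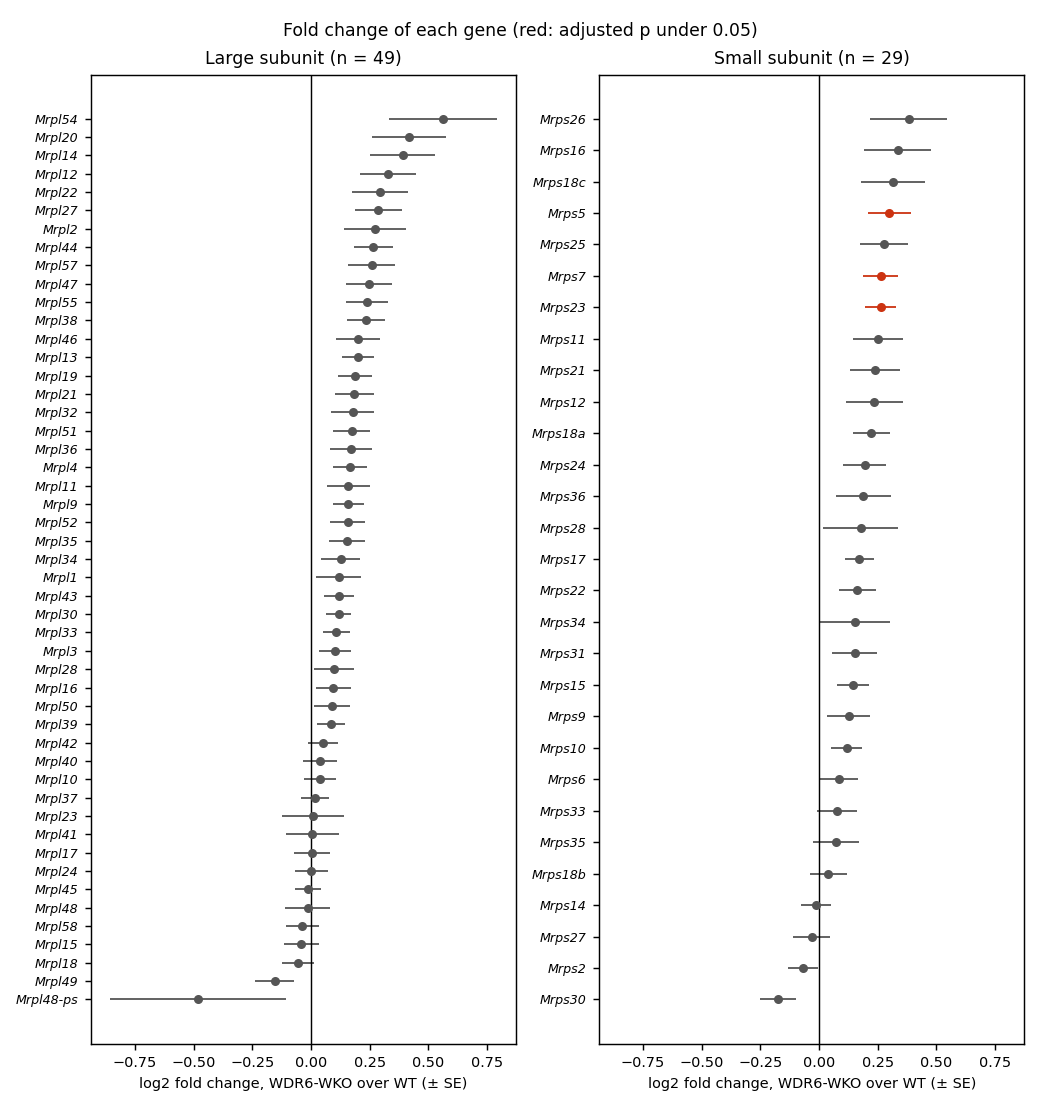
Log2 fold change of WDR6-WKO (n = 3) over WT (n = 4) for each gene, with its standard error, for genes named *Mrpl* (left) and *Mrps* (right), sorted by size. Of the 78 points, 67 lie above 0, and the 3 in red (*Mrps5*, *Mrps7* and *Mrps23*) had an adjusted p under 0.05.

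Among the small-subunit genes, 25 of 29 pointed higher and 4 lower, and the median was 0.17 (log2). The genes that rose were *Mrps23*, *Mrps7* and *Mrps5*. *Mrps23* (chr11:88204388-88211507, plus strand, GRCm38) encodes a protein found only in mitochondrial ribosomes. It stood at 31.96, 35.2, 32.4 and 34.6 CPM in WT replicates 1 to 4 and at 39.1, 42.9 and 38.6 CPM in WDR6-WKO replicates 1 to 3. Every knockout library lay above every WT library. The mean rose from 33.5 ± 1.61 CPM (SD, n = 4) to 40.2 ± 2.35 CPM (SD, n = 3), a log2 fold change of 0.26 (s.e. 0.07, adjusted p = 0.0185, edgeR's quasi-likelihood test). A two-sided exact permutation test on this gene gave p = 0.0286, the smallest value that 35 splits of 4 and 3 libraries allow. No exon of another annotated gene overlaps its transcript, and none of its 50-base sequences occurs in another gene.

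*Mrps7* (chr11:115603925-115608036, plus strand) encodes the counterpart of a bacterial protein in the head of the small subunit. Its levels were 48.9, 43.2, 45.4 and 44.2 CPM in the WT libraries and 56.1, 58.9 and 48.1 CPM in WDR6-WKO replicates 1 to 3. Knockout replicates 1 and 2 were above all WT libraries, while replicate 3 fell just under WT replicate 1. The log2 fold change was 0.26 (s.e. 0.07, adjusted p = 0.0284, edgeR's quasi-likelihood test; exact permutation p = 0.0571). Exons of *Gga3* on the opposite strand cover 6.47% of its transcript, and the strand setting of the counting is not stated.

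*Mrps5* (chr2:127587222-127606829, plus strand) also has a bacterial counterpart, a protein near the entry of the mRNA channel. It was counted at 32.3, 26.6, 26.8 and 28.2 CPM in WT and at 35.2, 39.4 and 30.4 CPM in the knockout libraries. Here again replicate 3 lay inside the WT range and the other knockout libraries above it. *Mrps5* had a log2 fold change of 0.30 (s.e. 0.09, adjusted p = 0.0448, edgeR's quasi-likelihood test; exact permutation p = 0.0857). The gene shares 12.4% of its 50-base sequences with the pseudogene *Gm13328*.

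The 3 calls were close to the threshold. Without WT replicate 1, 3 or WDR6-WKO replicate 2, the adjusted p of *Mrps23* was 0.0594, 0.0667 and 0.117. That of *Mrps7* was 0.0950, 0.0730 and 0.0859 without WT replicates 2, 3 and 4 and 0.114 and 0.156 without WDR6-WKO replicates 1 and 2. For *Mrps5* the same 5 omissions gave 0.131, 0.132, 0.111, 0.126 and 0.240, and its adjusted p was 0.0552 with limma-voom and 0.0515 with a replicate block. Both of these fits called 2 small-subunit genes, *Mrps23* and *Mrps7*. Without WDR6-WKO replicate 3 the adjusted p fell to 0.00125 for *Mrps23*, 5.5e-05 for *Mrps7* and 0.000273 for *Mrps5*. The sign was the same in each of these fits.

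**Figure D2:**
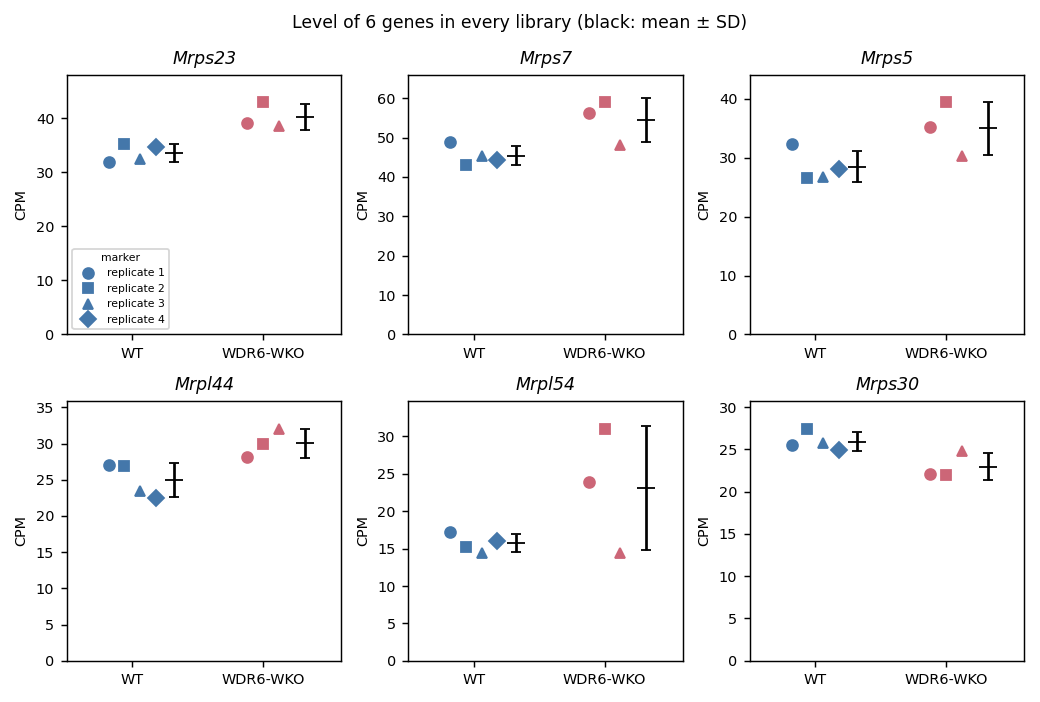
CPM of 6 genes in each WT (blue) and WDR6-WKO (red) library, with marker shape for the replicate number and black bars for mean ± SD. In *Mrps7*, *Mrps5* and *Mrpl54*, knockout replicate 3 (triangle) lies among the WT libraries, while in *Mrps23*, *Mrpl44* and *Mrps30* the groups do not overlap.

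*Mrps30*, whose product belongs to the large subunit, was the only one of the 78 with all knockout libraries below all WT libraries. It stood at 25.6, 27.4, 25.7 and 24.9 CPM in WT and at 22.1, 22.0 and 24.8 CPM in the knockout, with replicate 3 almost level with WT replicate 4. The log2 fold change was -0.18 (s.e. 0.08, adjusted p = 0.147, edgeR's quasi-likelihood test; exact permutation p = 0.0286). The difference therefore did not pass the adjusted test. Without WDR6-WKO replicate 3 it was -0.235 with an adjusted p of 0.0216. With GC content and length also taken out of each library, it was -0.155 with an adjusted p of 0.137. Exons of *B430218F22Rik* on the opposite strand cover 18.1% of its transcript.

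No large-subunit gene was called in edgeR's test, though 19 of the 49 (38.8%, against 28.1% of all genes) passed at an unadjusted p under 0.05. DESeq2 called 4 as higher (*Mrpl12*, *Mrpl14*, *Mrpl20* and *Mrpl44*), with 13.5% of all genes, and limma-voom called 0, with 12.5%. The count was 3 with library sizes as the only scaling, 1 with at least 10 counts in every library and 1 with a replicate block, settings that called 12.9%, 13.6% and 11.9% of all genes. Of the 49, 42 pointed higher and 7 lower, and the median log2 fold change was 0.13. *Mrpl44*, which has a ribonuclease III-like fold, had the smallest p of the large-subunit genes. Its levels were 27.0, 27.0, 23.4 and 22.5 CPM in WT and 28.1, 30.0 and 32.1 CPM in WDR6-WKO replicates 1 to 3. All knockout libraries were above all WT libraries, with replicate 3 the highest, unlike in most of the 78. The log2 fold change was 0.27 (s.e. 0.08, adjusted p = 0.0506, edgeR's quasi-likelihood test), and the 95% interval ran from 0.09 to 0.45. Without replicate 3 the log2 fold change was 0.22 with an adjusted p of 0.0433. With GC content and length taken out of each library it was 0.21 with an adjusted p of 0.0707. Without replicate 3 as well, it was 0.12 with an adjusted p of 0.252. Exons of *Wdfy1* on the opposite strand cover 8.85% of the transcript.

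*Mrpl54* had the largest log2 fold change of the 78, 0.56, with an s.e. of 0.23 and an adjusted p of 0.164. It was at 17.2, 15.2, 14.4 and 16.1 CPM in WT and at 23.9, 31.0 and 14.4 CPM in the knockout libraries. Replicates 1 and 2 were well above WT and replicate 3 was level with the lowest WT library. Without replicate 3 the log2 fold change was 0.80 with an adjusted p of 2.66e-07. *Mrpl14*, the counterpart of a bacterial protein at the interface of the subunits, showed the same shape. Its levels were 30.6, 29.1, 27.3 and 28.1 CPM in WT and 42.2, 43.4 and 27.1 CPM in the knockout (log2 fold change 0.39, adjusted p = 0.0918, edgeR's quasi-likelihood test). Without replicate 3 the difference was 0.57 with an adjusted p of 7.58e-08.

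Counted by their ranges, 9 of the 78 genes had all knockout libraries above all WT libraries (*Mrpl44*, *Mrpl13*, *Mrpl55*, *Mrpl47*, *Mrpl30*, *Mrpl43*, *Mrpl39*, *Mrps23* and *Mrps17*) and 1 had them below (*Mrps30*). Ranges were apart in 12.8% of the 78 and in 23.5% of all genes tested, 11.8% above and 11.7% below. The study's methods set the limits at 0.35 for the size of the log2 fold change and 0.05 for the unadjusted p, by which *Mrpl14*, *Mrpl20*, *Mrpl54* and *Mrps26* counted as higher and 0 as lower. By those limits 10.4% of all genes were called, 6.42% as higher and 3.94% as lower. In the adjusted test, in the ranges and by the study's thresholds, the share of the 78 that was called lay below that of all genes, whereas at an unadjusted p under 0.05 it lay above. For 44 of the 78 the 95% interval of the log2 fold change lay within 0.35 of 0, as it did for 7047 of the 14779 genes tested.

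The libraries of the knockout group were not alike. In each library the level of every gene was set against the mean of the WT libraries on the log2 scale, and the median over the 49 large-subunit genes was 0.12, 0.19 and -0.03 in WDR6-WKO replicates 1 to 3. Over the 29 small-subunit genes it was 0.22, 0.30 and 0.01. In the 4 WT libraries these medians lay between -0.02 and 0.03. The shift was thus present in knockout replicates 1 and 2 and not in replicate 3. Over all genes tested the same medians were 0.00, 0.01 and 0.00 in the knockout libraries.

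The summed level gave the same picture. The 78 genes together took 2332, 2326, 2264 and 2269 CPM in WT replicates 1 to 4 and 2548, 2703 and 2325 CPM in WDR6-WKO replicates 1 to 3. Knockout replicates 1 and 2 exceeded all WT libraries and replicate 3 was inside their range. The group mean was 2298 ± 36.0 CPM (SD, n = 4) in WT and 2525 ± 190 CPM (SD, n = 3) in the knockout. By subunit, the sum was 1561 ± 27.3 against 1705 ± 123 CPM for the large and 737 ± 9.34 against 820 ± 67.1 CPM for the small subunit. For the small subunit alone, replicate 3 summed to 750 CPM, just above the highest WT library at 746 CPM, so that all knockout libraries exceeded WT. The SD of the single genes was larger in the knockout than in WT for 68 of the 78, or 87.2%, as it was for 62.3% of all genes.

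**Figure D3:**
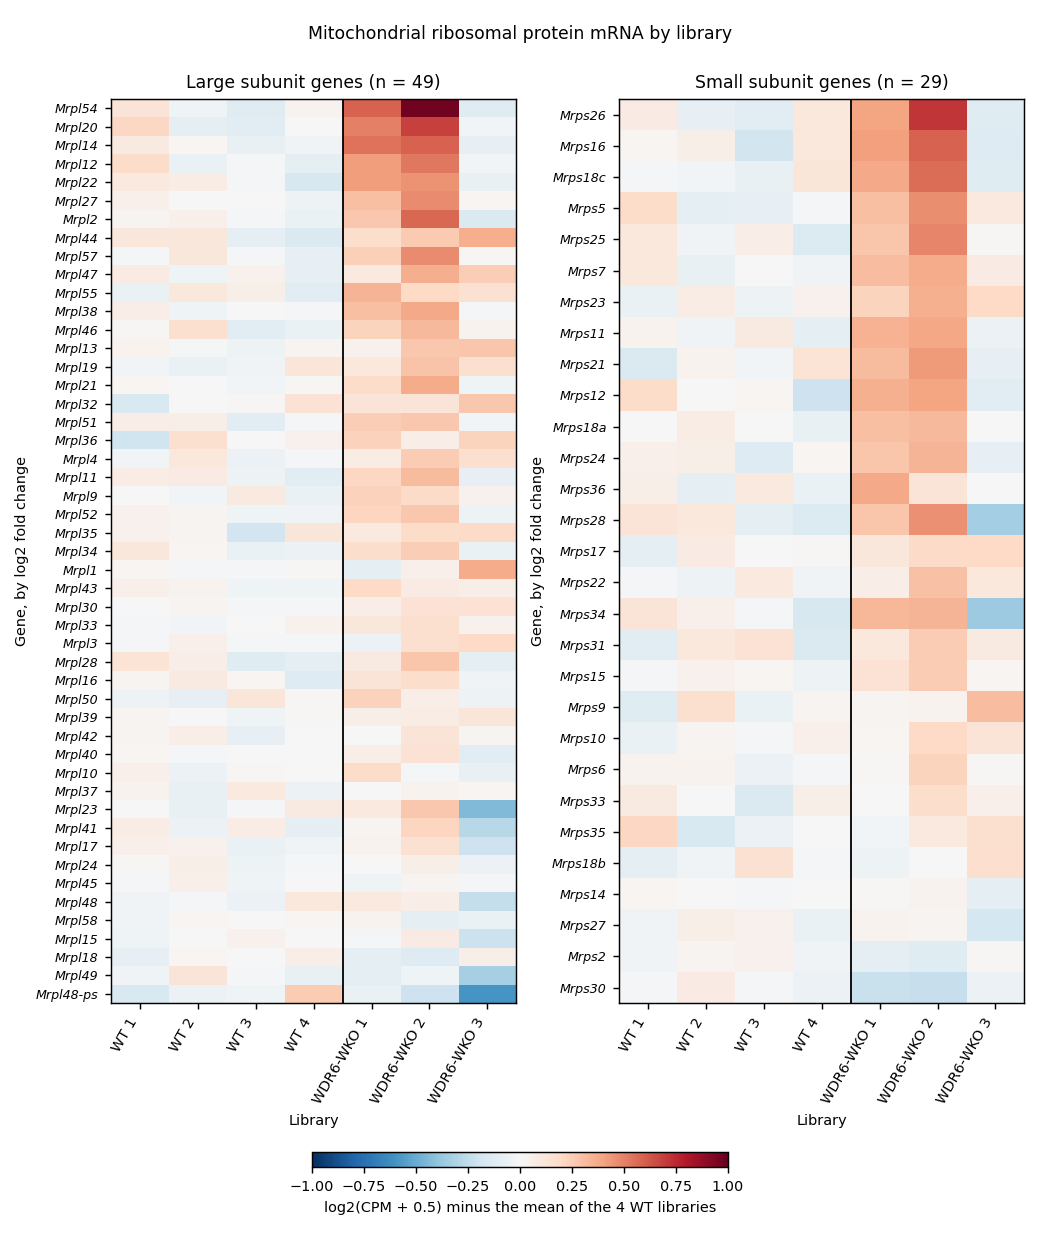
Level of each gene in each library, as log2(CPM + 0.5) minus the mean of the 4 WT libraries, with the large subunit on the left and the small subunit on the right, sorted by log2 fold change. Knockout replicates 1 and 2 are above the highest WT library for 48 and 60 of the 78 genes, and replicate 3 for 20.

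WDR6-WKO replicate 1 was above every WT library for 48 of the 78 genes (61.5%, against 30.7% of all genes) and below every WT library for 6 (7.69%, against 29.7%). Replicate 2 was above for 60 (76.9%, against 33.7%) and below for 5 (6.41%, against 31.4%). Replicate 3 was above for 20 (25.6%, against 29.2%), below for 23 (29.5%, against 29.1%) and inside the WT range for 35 (44.9%, against 41.7%). It was the lowest of the 3 knockout libraries for 52 of the 78 (66.7%, against 40.2%) and the highest for 14 (17.9%, against 39.8%). *Mrpl1*, among the latter, stood at 25.2 to 26.0 CPM in WT and at 23.9, 26.5 and 33.2 CPM in the knockout libraries.

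When WDR6-WKO replicate 3 was left out, edgeR's quasi-likelihood test called 19 of the 49 large-subunit genes, all higher, and 16 of the 29 small-subunit genes, 15 higher and 1 (*Mrps30*) lower. Together these were 35 of the 78, or 44.9%. In the same fit 28.6% of all genes tested were called, 14.5% as higher and 14.1% as lower. The medians were then 0.15 for the large and 0.27 for the small subunit. When any other library was left out, 0 or 1 large-subunit and 0 to 2 small-subunit genes were called. The background in those fits was 9.53%, 8.74%, 8.21% and 8.03% of all genes without WT replicates 1 to 4 and 7.99% and 6.99% without WDR6-WKO replicates 1 and 2. Replicate 3 was singled out after its values were seen.

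Transcript length and base composition moved with these differences. The 78 genes are short, with a median principal transcript of 1302 bases in GENCODE against 2815 bases for all genes tested, and their median GC content was 50.01% against 49.85%. In WDR6-WKO replicates 1 and 2, all short genes tended to be higher, with a median of 0.08 and 0.13 above the WT mean (log2) for genes under 1719 bases and of -0.06 and -0.10 for genes over 4313 bases, the outermost of 4 equal groups by length. In replicate 3 both medians rounded to 0.00. Genes with a GC content above 54.6%, the uppermost of 4 equal groups, stood at 0.10 and 0.11 in replicates 1 and 2 and at -0.08 in replicate 3. Of the 78 genes, 50 fall in the shortest group and 5 in the longest.

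**Figure D4:**
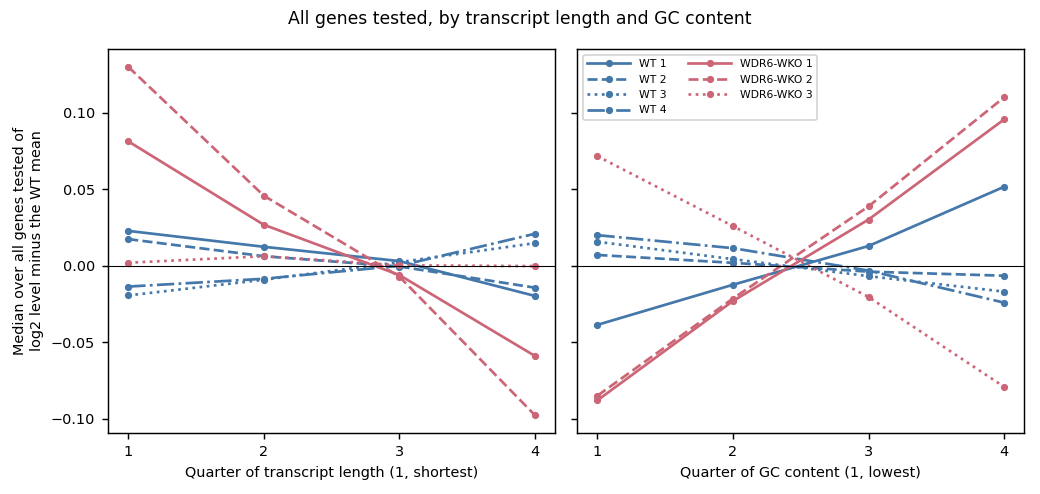
Median over all genes tested of the log2 level minus the WT mean, for 4 equal groups of genes by principal transcript length (left, shortest first) and by GC content (right, lowest first), with a line for each library. WDR6-WKO replicates 1 and 2 (red, solid and dashed) run from 0.08 and 0.13 in the shortest group to -0.06 and -0.10 in the longest, and replicate 3 (red, dotted) has the opposite slope for GC content, from 0.07 to -0.08.

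Within the shortest group the median of the 50 genes was 0.18 and 0.26 in replicates 1 and 2, against 0.08 and 0.13 for all genes of that length. In the 17 of the 78 genes with the highest GC content it was 0.30, 0.34 and -0.06 in replicates 1 to 3. With smooth curves of GC content and length taken out of each library, the medians of the large subunit became 0.09, 0.13 and -0.01 in WDR6-WKO replicates 1 to 3, and those of the small subunit 0.13, 0.16 and -0.01. The group medians of the log2 fold change were then 0.09 and 0.10. This fit called 4 large-subunit genes (*Mrpl12*, *Mrpl14*, *Mrpl19* and *Mrpl47*) and 3 small-subunit genes (*Mrps7*, *Mrps17* and *Mrps23*), all higher, with 18.0% of all genes called. In it *Mrps5* had a larger log2 fold change, 0.35 in place of 0.30, and an adjusted p of 0.0594. Without replicate 3 as well, a fit added after the data were seen, 17 large-subunit genes (16 higher) and 8 small-subunit genes (all higher) were called, with 24.5% of all genes. Whether length, composition or RNA quality contributed to the shift was not tested beyond these values.

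**Figure D5:**
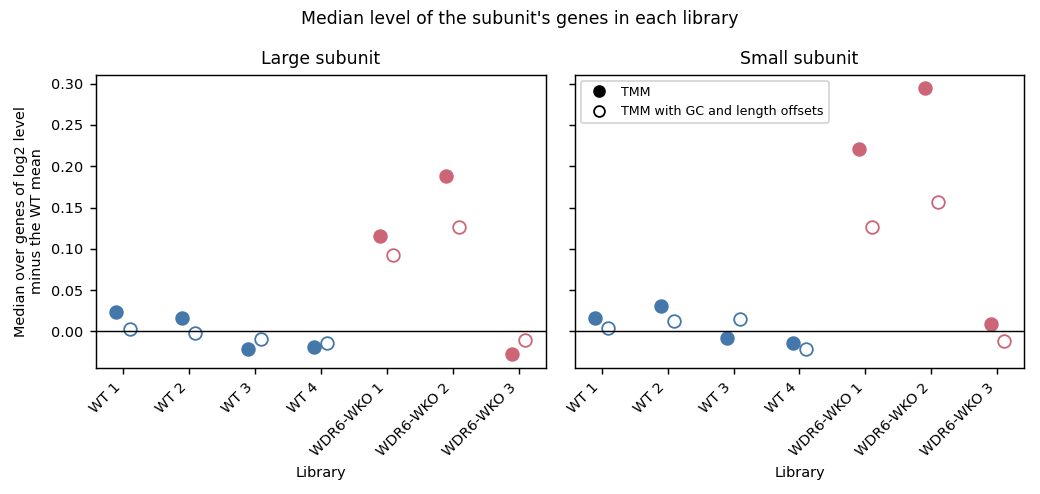
Median over the genes of each subunit of the log2 level minus the WT mean in each library, before (filled) and after (open) removal of each library's trend with GC content and transcript length. WDR6-WKO replicates 1 and 2 stand above the WT libraries both before (0.12 to 0.30) and after (0.09 to 0.16), and replicate 3 lies within 0.03 of 0.

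Other large groups of housekeeping genes had medians of the same size. The 85 genes of cytosolic ribosomal proteins (symbols *Rpl* and *Rps*) had a median log2 fold change of 0.14, with 10 called higher and 0 lower (11.8%). The 75 nuclear genes of respiratory chain and ATP synthase subunits had 0.15, with 9 called higher and 1 lower (13.3%). Both shares were close to the 12.8% called of all genes tested, but nearly all these calls were higher. Of all genes tested, 6.65% were called higher and 6.18% lower. The library medians of these groups were 0.13, 0.25 and 0.00 and 0.20, 0.26 and -0.04 in WDR6-WKO replicates 1 to 3. With the trends of GC content and length removed, these groups had medians of 0.06 and 0.05. Without WDR6-WKO replicate 3, 43 cytosolic genes were called higher and 1 lower, and 44 respiratory genes higher and 3 lower. That fit called 28.6% of all genes, 14.5% as higher and 14.1% as lower. No difference between these groups and the mitochondrial ribosomal genes was tested.

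By origin of the protein, 29 large-subunit proteins listed with a bacterial counterpart had a median log2 fold change of 0.16 and 18 listed without one 0.09. In these groups edgeR and limma-voom called 0 genes, and DESeq2 called 3 and 1, with 13.5% of all genes. At an unadjusted p under 0.05, 12 (41.4%) and 7 (38.9%) passed, against 28.1% of all genes. In the small subunit the median was 0.19 for 16 genes with a counterpart, 2 of them called (12.5%), and 0.15 for 9 without one, 1 of them called (11.1%). These shares were close to the 12.8% called of all genes tested, but all these calls were higher, against 6.65% of all genes. These 4 groups follow the product, so *Mrps30* is counted with the large subunit. They are not complete, as *Mrps18a*, *Mrps18b*, *Mrpl55* and *Mrpl58* are in none of them. No difference between these groups was tested.

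Levels among the genes spanned a narrow range. Without the pseudogene, the WT means ran from 9.61 to 61.0 CPM, a 6.35-fold span with a median of 29.6 CPM, while the quartiles of all genes tested were 3.92 and 60.8 CPM. The lowest count of any of these 77 genes in any library was 171 reads. Per kilobase of principal transcript, *Mrpl33* and *Mrpl52* were the most abundant large-subunit mRNAs, at 98.4 ± 2.32 and 93.1 ± 2.85 CPM per kb (SD, n = 4) in WT. The gap between them was about as wide as their SDs together, and *Mrpl42* followed at 62.4 ± 2.68 CPM per kb. Per-kilobase levels depend on the chosen transcript, as reads may come from shorter or longer forms.

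*Mrpl33*, whose protein has a bacterial counterpart, stood at 46.3, 46.1, 47.2 and 48.5 CPM in WT and at 51.0, 52.6 and 48.4 CPM in the knockout (log2 fold change 0.11, s.e. 0.06, adjusted p = 0.244, edgeR's quasi-likelihood test). *Gm43809* on the same strand covers 37.0% of its transcript. *Mrpl52* was at 40.1, 39.7, 37.8 and 38.1 CPM and then 45.3, 47.0 and 37.5 CPM (0.16, s.e. 0.08, adjusted p = 0.190). In both genes knockout replicates 1 and 2 lay above WT, and replicate 3 did not. Without it *Mrpl52* had a log2 fold change of 0.24 with an adjusted p of 0.00257. *Mrpl42* was at 42.2, 43.4, 39.2 and 41.4 CPM and then 41.5, 45.4 and 42.3 CPM (0.05, s.e. 0.06, adjusted p = 0.651), with the groups overlapping.

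At the other end of the large subunit, the pseudogene *Mrpl48-ps* was counted with 5 to 18 reads a library. Its levels were 0.56, 0.63, 0.64 and 0.90 CPM in WT and 0.62, 0.52 and 0.28 CPM in the knockout (-0.48, s.e. 0.37, adjusted p = 0.436, edgeR's quasi-likelihood test). It shares 44.6% of its 50-base sequences with *Mrpl48*, so these reads may belong to either. *Mrpl47* had 3.42 ± 0.19 and *Mrpl48* 3.84 ± 0.20 CPM per kb in WT, a gap only slightly wider than their SDs together. *Mrpl47*, with a bacterial counterpart, stood at 12.2, 11.2, 11.8 and 10.8 CPM in WT and at 12.3, 14.9 and 13.7 CPM in the knockout (0.25, s.e. 0.10, adjusted p = 0.117), the groups just apart. *Mrpl48* was at 16.0, 16.3, 15.8 and 17.7 CPM and then 17.6, 17.2 and 13.9 CPM (-0.01, s.e. 0.10, adjusted p = 0.945).

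In the small subunit *Mrps21* was the most abundant per length, at 51.1 ± 4.29 CPM per kb in WT, followed by *Mrps15* at 39.5 ± 1.03 and *Mrps18a* at 39.1 ± 1.65, which did not differ beyond their spread. *Mrps21*, with a bacterial counterpart, was at 22.4, 25.5, 24.4 and 27.5 CPM in WT and at 31.0, 33.5 and 23.5 CPM in the knockout (0.24, s.e. 0.11, adjusted p = 0.164, edgeR's quasi-likelihood test). Its share of 50-base sequences with other genes was 13.7%. *Mrps15*, likewise with a bacterial counterpart, was at 36.8, 38.02, 37.4 and 35.7 CPM and then 41.0, 44.1 and 37.4 CPM (0.15, s.e. 0.07, adjusted p = 0.173). Both had replicates 1 and 2 above WT and replicate 3 inside its range. Without it the values were 0.37 with an adjusted p of 0.000495 for *Mrps21* and 0.20 with 0.0150 for *Mrps15*.

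The lowest small-subunit levels per length were those of *Mrps25* at 3.58 ± 0.27, *Mrps35* at 4.12 ± 0.46 and *Mrps26* at 4.94 ± 0.37 CPM per kb, which have principal transcripts of 6073, 4162 and 4278 bases. All 3 proteins are found only in mitochondrial ribosomes. *Mrps25* stood at 23.4, 21.2, 22.7 and 19.7 CPM in WT and at 26.4, 30.6 and 21.8 CPM in the knockout (0.28, s.e. 0.10, adjusted p = 0.0919, edgeR's quasi-likelihood test), and exons of *Nr2c2* on the opposite strand cover 75.6% of its transcript. *Mrps35* was at 19.8, 15.3, 16.4 and 17.1 CPM and then 16.7, 18.3 and 19.2 CPM (0.07, s.e. 0.10, adjusted p = 0.684). *Mrps26* was at 22.3, 19.9, 19.6 and 22.6 CPM and then 27.9, 34.9 and 19.4 CPM (0.38, s.e. 0.16, adjusted p = 0.163). The groups overlapped in all 3 genes, through replicate 3 in *Mrps25* and *Mrps26*. Without it these reached 0.39 (adjusted p = 0.000628) and 0.57 (adjusted p = 9.59e-06).

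*Mrps18a*, *Mrps18b* and *Mrps18c* are paralogs of a single bacterial gene, with a product in the large subunit for *Mrps18a* and in the small subunit for the others. *Mrps18a* stood at 34.7, 36.4, 34.4 and 32.9 CPM in WT and at 42.7, 43.4 and 34.7 CPM in the knockout (0.22, s.e. 0.08, adjusted p = 0.0770, edgeR's quasi-likelihood test). *Mrps18b* was at 29.1, 30.5, 34.8 and 31.0 CPM and then 30.1, 31.4 and 35.2 CPM (0.04, s.e. 0.08, adjusted p = 0.802). *Mrps18c* was at 10.9, 10.8, 10.5 and 12.05 CPM and then 14.5, 16.5 and 10.1 CPM (0.32, s.e. 0.14, adjusted p = 0.145). Knockout replicates 1 and 2 were above WT in *Mrps18a* and *Mrps18c* and within its range in *Mrps18b*, whose transcript is covered to 59.1% by *Gm16279* on the opposite strand. Without replicate 3 the log2 fold change was 0.31 (adjusted p = 0.000306) for *Mrps18a*, -0.03 (adjusted p = 0.817) for *Mrps18b* and 0.48 (adjusted p = 0.000738) for *Mrps18c*. *Gm43511* on the same strand covers 27.3% of the *Mrps18c* transcript. *Mrps36* was at 10.0, 8.95, 10.3 and 9.14 CPM in WT and at 12.6, 10.5 and 9.55 CPM in the knockout (0.19, s.e. 0.12, adjusted p = 0.311), and 36.2% of its 50-base sequences occur in other genes. Sorted by product, the counts of calls were the same, 0 of 50 in the large and 3 of 26 in the small subunit.

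Of the 78 genes, 68 had a promoter window in RefSeq (GRCm38.p6), from 250 bases before to 50 bases after the start. The windows of the 3 called genes and of *Mrps30* are printed 5′ to 3′, with capitals marking matches on either strand to 5 motifs, the cores of ETS factors (CCGGAA), NRF1 (TGCGCA), YY1 (ATGGCGG) and ATF4 (TGATGCA) and the E-box (CACGTG). None of the motifs contains another. The windows lie at chr11:88204138-88204437 (plus strand) for *Mrps23*, chr11:115603890-115604189 (plus strand) for *Mrps7*, chr2:127587176-127587475 (plus strand) for *Mrps5* and chr13:118387203-118387502 (minus strand) for *Mrps30*.
Mrps23: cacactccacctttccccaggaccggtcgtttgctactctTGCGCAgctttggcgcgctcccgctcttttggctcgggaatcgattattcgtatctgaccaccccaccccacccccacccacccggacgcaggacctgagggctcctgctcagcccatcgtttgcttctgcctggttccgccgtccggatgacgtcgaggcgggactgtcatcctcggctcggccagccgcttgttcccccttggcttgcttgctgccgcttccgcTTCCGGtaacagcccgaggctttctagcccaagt
Mrps7: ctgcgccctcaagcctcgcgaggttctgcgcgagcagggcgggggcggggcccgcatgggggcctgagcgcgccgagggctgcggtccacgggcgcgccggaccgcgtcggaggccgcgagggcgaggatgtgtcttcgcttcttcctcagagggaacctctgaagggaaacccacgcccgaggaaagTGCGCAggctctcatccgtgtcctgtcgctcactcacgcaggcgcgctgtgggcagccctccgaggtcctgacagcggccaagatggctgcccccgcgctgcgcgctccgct
Mrps5: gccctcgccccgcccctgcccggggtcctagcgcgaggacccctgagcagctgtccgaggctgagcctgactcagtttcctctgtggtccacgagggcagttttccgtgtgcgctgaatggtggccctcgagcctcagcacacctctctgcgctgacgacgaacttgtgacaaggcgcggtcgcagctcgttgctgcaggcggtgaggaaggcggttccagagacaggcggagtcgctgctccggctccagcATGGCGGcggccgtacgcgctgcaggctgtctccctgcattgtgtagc
Mrps30: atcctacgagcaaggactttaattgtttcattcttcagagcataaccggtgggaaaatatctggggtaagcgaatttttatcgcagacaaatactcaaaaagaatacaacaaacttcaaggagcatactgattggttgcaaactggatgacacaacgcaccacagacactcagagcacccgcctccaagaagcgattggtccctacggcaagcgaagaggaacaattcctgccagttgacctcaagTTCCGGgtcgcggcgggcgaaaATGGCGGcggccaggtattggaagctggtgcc

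The *Mrps23* window held an NRF1 and an ETS core, *Mrps7* an NRF1 core, *Mrps5* a YY1 core and *Mrps30* an ETS and a YY1 core. Over the 68 windows, 38 (55.9%) held the ETS core, against 27.8% of the 10569 windows of genes tested and 15.2% of all 27025 windows. The NRF1 core was in 21 (30.9%, against 14.0% and 8.06%) and the YY1 core in 12 (17.6%, against 7.96% and 4.19%). At least 1 of these 3 was in 53 windows (77.9%, against 41.5% and 23.6%). The E-box was in 5 (7.35%, against 10.1% and 7.24%) and the ATF4 core in 0, against 1.91% and 3.2%. A match describes these letters and not a bound site.

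The mitochondrial rRNAs with which the proteins assemble did not follow them. The large-subunit rRNA *mt-Rnr2* stood at 662, 685, 783 and 640 CPM in WT and at 344, 352 and 605 CPM in WDR6-WKO replicates 1 to 3. All knockout libraries were below WT, with replicate 3 nearest to it. The log2 fold change was -0.68 (s.e. 0.24, adjusted p = 0.139, edgeR's quasi-likelihood test) and -0.996 without replicate 3 (adjusted p = 4.2e-05), and it passed with limma-voom (adjusted p = 0.00622) and with a replicate block (0.0454). The small-subunit rRNA *mt-Rnr1* stood at 544, 468, 584 and 404 CPM in WT and at 222, 224 and 462 CPM in the knockout (-0.73, s.e. 0.33, adjusted p = 0.232). There replicate 3 lay inside the WT range, and without it the log2 fold change was -1.17 with an adjusted p of 0.0138, while limma-voom on all libraries gave an adjusted p of 0.0189. Both rRNAs were lowest in the libraries in which the median of the protein genes was highest. rRNA counts also depend on how rRNA was removed from the libraries, and their relation to the protein genes was not tested.

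Among the 12 mitochondrially encoded mRNAs in the table, the templates of this ribosome, 0 were called by edgeR, DESeq2 or limma-voom and 1 passed at an unadjusted p under 0.05. The log2 fold change had a median of -0.01, with library medians of -0.06, -0.20 and 0.15 in the knockout. The 5 mitochondrial ribosomal proteins with other symbols (*Dap3*, *Chchd1*, *Aurkaip1*, *Ptcd3* and *Gadd45gip1*) had a median of 0.05. *Aurkaip1*, which encodes a small-subunit protein, was the only one called. It was at 33.8, 30.8, 31.7 and 30.8 CPM in WT and at 40.0, 44.7 and 33.2 CPM in the knockout (0.31, s.e. 0.09, adjusted p = 0.0285, edgeR's quasi-likelihood test), again with replicate 3 inside the WT range. Without WT replicates 2, 3 and 4 its adjusted p was 0.0852, 0.0755 and 0.0869, without WDR6-WKO replicates 1 and 2 it was 0.102 and 0.188, and without replicate 3 it was 1.74e-05 with a log2 fold change of 0.41.

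Of 28 ribosome assembly and rRNA modification factors, 0 were called by edgeR, DESeq2 or limma-voom, 8 (28.6%, against 28.1% of all genes) had an unadjusted p under 0.05, and the median was 0.15. Of 17 translation factors, 0 were called by any of these tools and 1 passed unadjusted, with a median of 0.02. Among 17 factors of mitochondrial genome expression, which transcribe and process mitochondrial RNA, the median was 0.04 and 1 was called, *Hsd17b10*, a subunit of mitochondrial RNase P. It stood at 38.9, 38.5, 37.3 and 38.6 CPM in WT and at 46.3, 45.9 and 41.5 CPM in the knockout, where every library was above WT (0.22, s.e. 0.06, adjusted p = 0.0306, edgeR's quasi-likelihood test). Its adjusted p was 0.116 with GC content and length taken out and 0.0534 with a replicate block. It ranged from 0.0600 to 0.136 when a library other than WDR6-WKO replicate 3 was left out.

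Of 12 transcriptional regulators of mitochondrial genes, 1 was called and the median was -0.02. *Myc*, which encodes a transcription factor of ribosome biogenesis and growth, stood at 175, 186, 166 and 171 CPM in WT and at 202, 221 and 222 CPM in the knockout. All knockout libraries were higher, replicate 3 included (0.30, s.e. 0.05, adjusted p = 0.00156, edgeR's quasi-likelihood test). With GC content and length taken out the adjusted p was 0.142.

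Marker genes of liver cell types also differed between the groups. All 8 hepatocyte markers were detected and pointed lower, 4 of them called (*Cps1*, *Hnf4a*, *Apoa1* and *Asgr1*; 50%). Over all genes tested 12.8% were called, 6.65% as higher and 6.18% as lower. The hepatocyte markers summed to 8194 to 9768 CPM in WT and 7576 to 8098 CPM in the knockout, with library medians of -0.20, -0.27 and -0.47. In WT 1 marker made up 7366 of the mean sum of 9188 CPM. All 10 Kupffer cell markers were detected and pointed higher, 3 of them called (*Lyz2*, *C1qc* and *C1qb*; 30%). Without replicate 3, 6 were called, in a fit that called 28.6% of all genes. The Kupffer cell markers had sums of 648 to 716 and 773 to 918 CPM and medians of 0.28, 0.35 and 0.13. Of 5 cholangiocyte markers 3 pointed higher and 2 lower, and 2 were called, both higher (*Spp1* and *Sox9*; 40%). Their sums were 3068 to 3360 and 3714 to 4306 CPM, but 1 marker made up 2980 of the mean of 3215 CPM in WT. Among 6 stellate markers 3 pointed higher and 3 lower, and 1 was called, as higher (*Dcn*; 16.7%), with sums of 304 to 342 and 326 to 340 CPM. Of 6 endothelial markers 1 pointed higher and 5 lower, with sums of 199 to 230 and 178 to 219 CPM. Of these, 0 were called by edgeR, DESeq2 or limma-voom or had an unadjusted p under 0.05. No marker of these lists was at 0. In bulk RNA, a change in the mix of cells and a change within hepatocytes cannot be told apart, and the part of these markers in the ribosomal values was not tested.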

How the data were processed

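RNA from primary hepatocytes of WT (4 libraries) and WDR6-WKO mice (3 libraries) was sequenced by the authors on an Illumina HiSeq platform and aligned to the mouse genome (mm10) with Bowtie2 2.2.3, per the submitters' processing notes. The deposited values are whole-number counts of reads on each gene, which the authors did not normalize. The counting tool, its annotation and its strand setting are not given in the sources used here. The table has 14819 rows with 14817 identifiers, as symbols that a spreadsheet had turned into dates occur repeatedly and were kept as separate rows, and its smallest row total is 50, so genes with fewer reads are not in it.

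Counts were tested with edgeR 4.0.16 in R 4.3.3 (TMM scaling, filterByExpr, robust quasi-likelihood test of genotype alone), and p-values were adjusted by the Benjamini-Hochberg method over 14779 genes. Each standard error was the fold change on the log2 scale divided by the root of F, and the common biological coefficient of variation was 7.40%. Exact two-sided permutation tests used mean log2(CPM + 0.5) over the 35 possible arrangements of the group labels. DESeq2 1.42.0 and limma 3.58.1 (voom), other scalings and filters, a replicate block, offsets for GC content and length, and the omission of each library were alternatives. On simulated counts for 14710 genes, the test recovered 191 of 200 genes changed by 0.58 on the log2 scale, 191 with the right sign. It made 18 false calls. The changed genes were picked from well-counted ones, and no simulated library stood apart from its group. Smaller changes, such as those of the called genes, were not simulated, so their rate of recovery is not known.

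Positions, principal transcripts and shared 50-base sequences came from GENCODE (GRCm38), which matched 99.4% of identifiers. No 2 libraries of a group were alike within sampling noise (chi-square of at least 3.80 per gene). Named in full were called genes, the 3 highest and 3 lowest levels per length in each subunit, the *Mrps18* paralogs, *Mrps36*, called genes of the lists and *Wdr6*. *Mrps30*, *Mrpl44*, *Mrpl54*, *Mrpl14*, *Mrpl1* and the rRNAs were added after their values were seen. The genes and lists were chosen with earlier results of these data known.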

Additional observations from a re-analysis of the deposited data

Results flagged for a closer look

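In the WT group of 4 libraries, each gene or sum was examined with Dixon's criterion for a library that stood far from the rest. Of 105 such groups 3 were picked out, where chance alone picks about 1 in 20. *Mrpl3* stood at 47.08 CPM in WT replicate 2 and at 44.62 to 44.98 CPM in the other WT libraries. The Kupffer cell marker *Lyz2* stood at 52.4 CPM in WT replicate 3 and at 48.00 to 48.65 CPM in the others. The summed level of the mitochondrially encoded mRNAs was 29859 CPM in WT replicate 1 and 32781 to 33165 CPM in the others.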

How the results depend on the processing

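In edgeR's main test 0 large-subunit and 3 small-subunit genes were called. The large-subunit count was 3 with library sizes alone, 1 with at least 10 counts in every library, 4 with DESeq2, 4 with offsets for GC content and length, and 3 by the study's thresholds, and the small-subunit count was 1 by those thresholds. Leaving out 1 library at a time gave 0 to 19 large-subunit and 0 to 16 small-subunit genes, and 1032 to 4231 of all genes against 1897, the highest in each case without WDR6-WKO replicate 3. With that replicate left out and offsets for GC content and length, an alternative chosen after seeing the data, 17 large-subunit (16 higher), 8 small-subunit (all higher) and 3616 of all genes were called. The median log2 fold change of the small subunit ranged from 0.115 to 0.271 over the omissions, and that of the large subunit from 0.0938 to 0.15. Both medians were above 0 in every alternative run. Of the 78 genes, 57 had the same sign in every setting in which they were tested, the main one included. There were 16 such settings, and *Mrpl48-ps*, 1 of the 57, was tested in 15 of them. Library sizes alone moved the split of all calls from 983 higher and 914 lower to 1212 and 696.

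Same-numbered WT and WDR6-WKO libraries deviated together with correlations of only 0.0689, 0.0311 and 0.0566, so the numbers were not taken to pair them. With the replicate block, 1 large-subunit and 2 small-subunit genes were called, and 1762 of all genes.

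With 3 knockout libraries the precision was limited. The 95% interval of the log2 fold change stayed within 0.35 of 0 for 44 of the 78 genes and for 7047 of the 14779 tested. This count also depends on the size of the fold changes.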
